A study of Mus musculus with 7 samples.

Results

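The genes described here encode SR proteins, hnRNPs and subunits of the U2 snRNP, which choose and recognise the splice sites of pre-mRNA. They were taken by symbol, as the protein-coding genes of GENCODE M21 on autosomes 1 to 19 whose names begin with Srsf, Hnrnp, Sf3a or Sf3b. This gave 39 of 20807 autosomal coding genes, made up of 11 SR protein genes, 19 hnRNP genes and 9 U2 snRNP genes (3 Sf3a and 6 Sf3b). Hnrnph2, on chromosome X, was not analysed here. Coordinates are on mouse build mm10 (GRCm38).

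All libraries came from mouse muscle stem cells (MuSCs), the resident stem cells of skeletal muscle. The general sort of the study takes CD45-/CD31-/CD11b-/Sca1- cells that carry α7-integrin with VCAM or CD34, and for CUT&Tag its methods refer to another protocol for isolation. TRF2, the product of Terf2, binds the TTAGGG repeats of telomeres, and the study examined where it sits elsewhere in the genome and what its loss does to open chromatin. CUT&Tag, in which an antibody brings a transposase to a chromatin protein, gave 2 TRF2 libraries and 1 IgG library from wild-type tibialis anterior, labelled 3 days after notexin, a toxin that injures muscle. The methods of the study give a shorter time, a second hind limb muscle and mice with a Pax7 Cre driver and a TdTomato reporter for this assay, so the time point is uncertain. For ATAC-seq, where transposase acts on any accessible DNA, there were 2 Control and 2 TRF2KO libraries from uninjured hind limb at 0 h, described as biological replicates. TRF2KO mice, on a C57BL/6 background, carried a floxed Terf2 allele and a tamoxifen-inducible Cre at the Pax7 locus. Tamoxifen was started in young adults. The sources used here do not give the age at which these cells were taken, how many mice were pooled, or whether Control mice carried the Cre or received tamoxifen. Titles put the libraries in their groups, since the genotype label of the TRF2KO samples says wild type.

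SR proteins bind exonic enhancers through RNA recognition motifs and recruit the spliceosome through domains rich in arginine and serine. Heterogeneous nuclear ribonucleoproteins (hnRNPs) coat nascent RNA, and many of them repress exons or act in the export and stability of mRNA. The Sf3a and Sf3b complexes belong to the U2 snRNP, which pairs with the branch point and is needed for nearly every intron. Many of these genes are expressed in most cell types, and several SR and hnRNP genes adjust their own output through splicing that leads to mRNA decay. Peak lists show where a protein or an open site lies and say nothing of transcript levels.

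A G-quadruplex (G4) is a stack of guanine tetrads that guanine-rich DNA can form, and the study asked about such sequences under TRF2. It was searched for on both strands as 4 or more stretches of G, each 3 or longer, joined by spacers of 1 to 7 bases. To let the DNA under the TRF2 peaks be read, the motif nearest a TRF2 summit is printed for the 6 splicing genes with the highest TRF2 folds among those with a peak in both libraries and a motif in a peak. Each is written 5′ to 3′ on the G-rich strand, with the runs of G in capitals. The Hnrnpd motif (chr5:99979193-99979216, minus strand) lies in a coding exon of the neighbouring gene 4930524J08Rik, 48 bp from a TRF2 summit. That of Hnrnpk (chr13:58402362-58402382, minus strand) lies in a UTR exon of Rmi1 on the other strand and inside the Hnrnpk gene. The Sf3b1 motif (chr1:55027519-55027542, plus strand) is between genes, 22 bp from a TRF2 summit. That of Srsf7 (chr17:80206994-80207024, minus strand) is intronic and 6 bp from a summit. Srsf2 has its motif at chr11:116853406-116853431 (minus strand) in an exon of Mfsd11 that overlaps the annotated Mettl23 gene, and that of Hnrnpdl, at chr5:100039962-100039993 (minus strand), overlaps a UTR exon of Enoph1 by 9 bases.
Hnrnpd: GGGGccaaGGGacGGGGGcGGGGG
Hnrnpk: GGGtGGGctaGGGcttcGGGG
Sf3b1: GGGGcattatGGGagtGGGcGGGG
Srsf7: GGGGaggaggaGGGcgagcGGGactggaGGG
Srsf2: GGGGaaGGGGcGGGGctctggtGGGG
Hnrnpdl: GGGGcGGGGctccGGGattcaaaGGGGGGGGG

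The next sequences are the 250 bases upstream of the 3 genes with the highest TRF2 folds whose TRF2 summits both fall in that stretch and which hold no annotated exon there. They are written in the direction of the gene and end at the base before its start, with the 21 bases centred on the summit of TRF2 replicate 1 in capitals. Hnrnpa2b1 lies at chr6:51469895-51470144, Hnrnpc at chr14:52104029-52104278 and Sf3b1 at chr1:55027482-55027731, all on the minus strand. Only the Sf3b1 stretch of these 3 holds the G4 pattern, on its other strand, and only that of Hnrnpa2b1 holds a TTAGGG unit, at 1 copy.
Hnrnpa2b1: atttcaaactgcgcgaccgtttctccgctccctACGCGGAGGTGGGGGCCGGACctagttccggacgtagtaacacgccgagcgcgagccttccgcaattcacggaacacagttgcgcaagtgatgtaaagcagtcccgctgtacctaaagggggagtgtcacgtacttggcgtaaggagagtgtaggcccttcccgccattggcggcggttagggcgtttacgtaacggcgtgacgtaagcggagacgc
Hnrnpc: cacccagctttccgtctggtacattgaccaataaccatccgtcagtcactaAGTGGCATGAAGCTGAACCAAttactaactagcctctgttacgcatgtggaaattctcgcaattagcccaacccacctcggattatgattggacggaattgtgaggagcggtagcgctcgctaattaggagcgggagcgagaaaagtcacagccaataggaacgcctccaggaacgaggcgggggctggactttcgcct
Sf3b1: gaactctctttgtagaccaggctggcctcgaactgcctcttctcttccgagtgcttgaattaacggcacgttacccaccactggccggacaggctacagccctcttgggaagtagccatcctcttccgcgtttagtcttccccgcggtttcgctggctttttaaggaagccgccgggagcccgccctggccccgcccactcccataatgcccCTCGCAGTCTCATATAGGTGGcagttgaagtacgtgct

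The lists of peaks called with MACS held 87394 and 98558 autosomal peaks for Control, 83039 and 82556 for TRF2KO, 12066 and 15223 for TRF2 and 640 for IgG. Each peak carries a fold, the fragment pileup at its summit over a background with 1 added to both. The ATAC background solved from these values was constant within a library, at 3.35 to 4.56 fragments, while that of CUT&Tag varied between peaks. In CUT&Tag the median TRF2 summit rested on 9 fragments, so the TRF2 lists are shallow. The sorted cells were checked by their chromatin. All 9 MuSC marker genes examined had a start peak in all 4 ATAC libraries (Pax7 folds 54.5 and 48.4 in Control and 47.8 and 50.4 in TRF2KO). Among 13 markers of other muscle cells, 6 had a peak in all 4 (Cd68, Col1a1, Kdr, Pdgfra, Pecam1 and Tek) and 3 had none in any (Adgre1, Itgam and Ptprc). Ranked among the Control start peaks of all coding genes, the MuSC markers had a median percentile of 57.1 (28.4 to 99.2). Those 6 had a median of 15.1 (5.35 to 52.1). The lists overlap, since Col1a1 (52.1) stood above Cd34 (28.4), Vcam1 (29.9) and Calcr (49.3) and below the other MuSC markers. Tek (28.8) also stood above Cd34, and below the other MuSC markers. No marker of either list passed the genotype test (lowest limma adjusted p = 0.055). The deleted gene was read first. The start peak of Terf2 had folds of 54.3 and 48.4 in Control and 21.5 and 18.6 in TRF2KO, a log2 difference of -1.46 (SE 0.076, limma adjusted p = 0.0165), in the direction of the labels. The deleted interval is not given in the sources used here. The call held in 11 of 13 settings, and its adjusted p reached 0.125 without a Control library.

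The starts of the splicing genes were accessible almost without exception. An ATAC peak lay within 1 kb of the gene start in all 4 libraries for 37 of the 39 genes (94.9%), against 61.9% of all autosomal coding genes. All 11 SR protein genes, 18 of 19 hnRNP genes and 8 of 9 U2 snRNP genes were among them. To place their height, the highest start peak of each gene was ranked within its library among the start peaks of all coding genes. The mean Control percentile of the splicing genes had a median of 81.7 and ran from 7.44 to 98.1, beside 51.3 for all genes with a start peak in both Control libraries. In the top quintile of that ranking lay 20 of the 37 genes (54.1%), and 31 lay in the upper 2 quintiles.

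**Figure D1:**
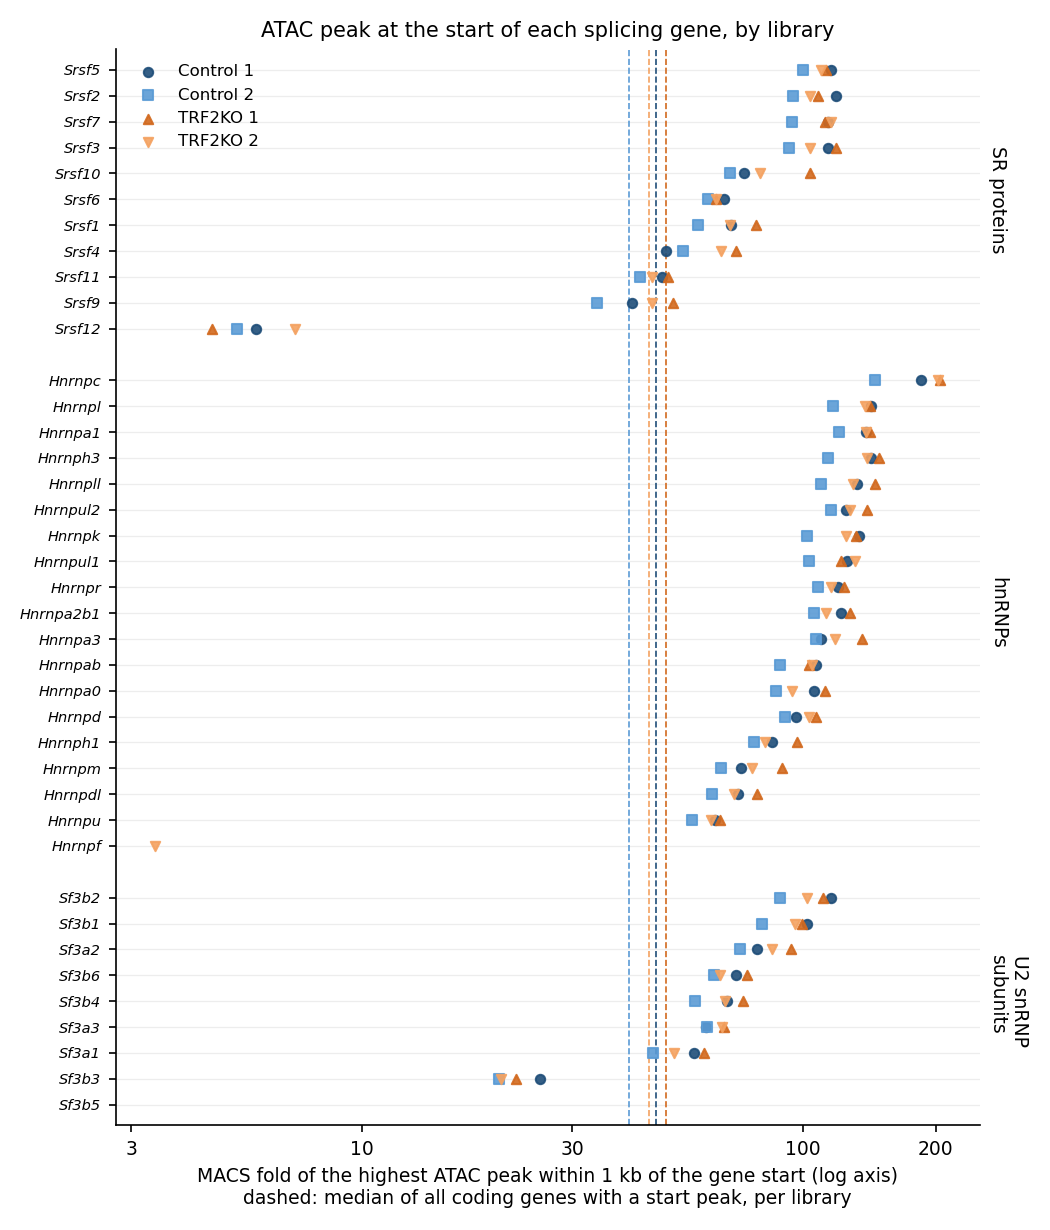
MACS fold of the highest ATAC peak within 1 kb of each gene start (x axis, log scale) for the 39 splicing genes, 1 marker per library, grouped by class and ordered by Control percentile, with dashed lines at the median of all coding genes in each library. Most genes stand to the right of the medians of 40.3 to 48.9 in all 4 libraries, while Srsf12 and Sf3b3 stand to the left. Srsf9 stands to the left in both Control libraries (41.0 and 34.2). Hnrnpf has a marker in TRF2KO replicate 2 alone (3.40), also to the left, and Sf3b5 has no peak.

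The hnRNP genes stood highest, with a median Control percentile of 88.9 (63.3 to 98.1, 18 genes) beside 66.1 for SR protein genes (7.44 to 86.8, 11 genes) and 66.4 for U2 snRNP genes (29.8 to 84.5, 8 genes). Hnrnpc, which binds uridine tracts and keeps cryptic exons out of mRNA, had the highest start peak. Its folds were 185 and 146 in Control and 205 and 203 in TRF2KO, and its rank was at percentile 97.6 or above in every ATAC library. Hnrnpl, a repressor that binds CA repeats, followed with folds of 143 and 117 in Control and 142 and 138 in TRF2KO. Hnrnpa1, a splicing repressor that also binds telomeric RNA, had 139 and 121 in Control and 142 and 139 in TRF2KO. For Hnrnph3, of the family that binds runs of G in RNA, the values were 143 and 114 in Control and 149 and 140 in TRF2KO. Hnrnpll, a paralog of Hnrnpl, had 133 and 110 in Control and 146 and 130 in TRF2KO. Ranks within a library place the genes from Hnrnpl to Hnrnpll between percentiles 90.4 and 93.6 in Control, and neighbours in that order overlap between the Control libraries. In 35 of the 37 genes Control replicate 1 had a higher fold than Control replicate 2, the library with the highest background pileup.

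At the other end stood Srsf12, an SR protein gene of restricted expression, with folds of 5.75 and 5.22 in Control and 4.57 and 7.04 in TRF2KO. Its summits rested on 19 to 30 fragments, and the TRF2KO values lay on both sides of the Control values. Next was Sf3b3, the large scaffold subunit of the Sf3b complex, with 25.3 and 20.5 in Control and 22.4 and 20.7 in TRF2KO. Then came Srsf9, a shuttling SR protein, with 41.0 and 34.2 in Control and 50.8 and 45.6 in TRF2KO. These 3 genes had mean Control percentiles of 7.44, 29.8 and 44.7, and their Control percentiles did not overlap.

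The start peaks of the splicing genes were also wide. Their median width was 1989 and 2080 bp in Control and 2145 and 1916 bp in TRF2KO, beside 1359 and 1404 bp and 1346 and 1294 bp for all coding genes with a start peak. Around the start the sequence was rich in CpG dinucleotides, with a median ratio of observed to expected CpG of 0.911 within 500 bp against 0.568 for all coding genes. The median GC content was 61.1% against 55.0%, and 62.3% against 59.1% among genes with an ATAC peak in all 4 libraries. Coding genes on the opposite strand began within 1 kb of the start in 12 of the 39 (30.8%, against 11.2% of all). Among genes accessible in all 4 libraries the shares were 32.4% and 17.3%. All 12 were accessible in all 4 libraries, as were 2235 of the 2321 coding genes with such a neighbour. Examples are Hnrnpa2b1 with Cbx3 and Hnrnpa1 with Cbx5, which both pair an hnRNP gene with a gene for a heterochromatin protein HP1. Further pairs are Srsf2 with Mfsd11, Srsf11 with Lrrc40, and Sf3b3 with Cog4. At such starts a peak cannot be assigned to either gene.

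Both genes without an ATAC peak at the annotated start had a high peak inside the gene. For Sf3b5, a small subunit of the Sf3b complex, the nearest peak had folds of 88.4 and 80.1 in Control and 85.1 and 87.6 in TRF2KO, with summits 3068 to 3091 bp into the gene. The RefSeq start of Sf3b5 lies 3107 bp downstream of the GENCODE start, within that peak, and TRF2 peaks of fold 6.35 and 7.31 lay there too. For Hnrnpf, a relative of Hnrnph1 that binds runs of G, the peak near the start was seen in TRF2KO replicate 2 alone (fold 3.40). Its main peak had folds of 127 and 110 in Control and 135 and 122 in TRF2KO, at an internal transcript start 6466 bp into the gene, with TRF2 peaks of 6.84 and 8.44. The counts of peaks at gene starts therefore depend on which start the annotation gives.

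TRF2 peaks were common at these starts. Of the 39 genes, 24 (61.5%) had a TRF2 peak within 1 kb in both libraries, against 23.3% of all autosomal coding genes. A further 7 had a peak in 1 library only and 8 had none, and no member had an IgG peak, which 0.101% of all coding genes had. With peaks of -log10 q of at least 5 alone, 13 genes had TRF2 in both libraries (13.0% of all coding genes did). Members of the hnRNP class led with 15 of 19, followed by 7 of 11 SR protein genes and 2 of 9 U2 snRNP genes. The classes also differ in ATAC height, and the share by class was not tested.

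**Figure D2:**
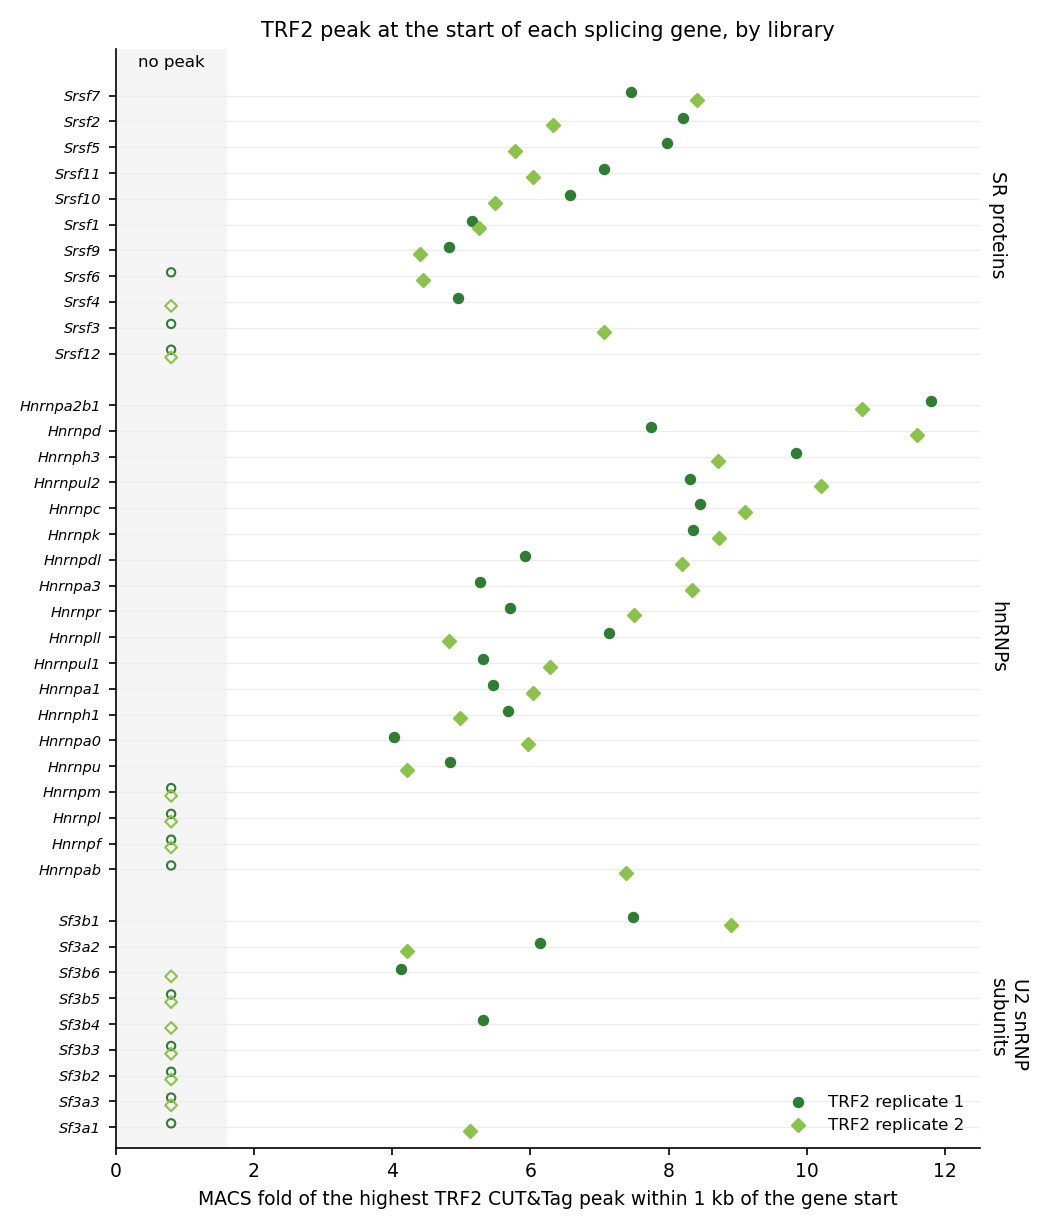
MACS fold of the highest TRF2 CUT&Tag peak within 1 kb of each gene start (x axis) for the 39 splicing genes, with a circle for replicate 1 and a diamond for replicate 2, grouped by class, with genes that have both peaks first in order of mean fold. Open markers in the grey band stand for no peak in that library. Folds run from 4.03 to 11.8, and 7 of the 9 U2 snRNP genes have no peak in at least 1 library.

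Hnrnpa2b1, which binds and sorts RNA with UAGGG motifs, had the highest mean TRF2 fold, at 11.8 in replicate 1 and 10.8 in replicate 2. Its summits held 31 and 24 fragments and lay at -207 and -177 bp from the start (negative is upstream), in the stretch printed above. Hnrnpd, the AU-rich element binding protein AUF1, had 7.75 and 11.6, with summits at -179 and -218 bp. For Hnrnph3 the folds were 9.85 and 8.71. Hnrnpul2, a relative of Hnrnpu, had 8.31 and 10.2. For Hnrnpc they were 8.45 and 9.11, with summits at -189 and -160 bp, inside its printed sequence. Hnrnpk, a protein with KH domains that binds C-rich strands, had 8.35 and 8.73. The folds of neighbours in this order differ by less than those of the 2 libraries for Hnrnpd, so the order is not firm. Opposite-strand coding genes began within 1 kb of Hnrnpa2b1 (Cbx3), Hnrnpd (4930524J08Rik), Hnrnph3 (Pbld2) and Hnrnpul2 (Ttc9c). Peaks at these starts cannot be assigned to either gene. Of accessible members, 10 of 12 with such a neighbour and 14 of 25 without had TRF2 in both libraries. Over all accessible coding genes the shares were 54.4% and 33.9%, and the split was not tested. The highest outside the hnRNPs were Sf3b1, the branch-point subunit often mutated in myelodysplasia, with 7.48 and 8.90, and Srsf7 with 7.45 and 8.41.

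Among the SR protein genes with TRF2 in both libraries, Srsf2, which binds exonic enhancers, had 8.21 and 6.33. Srsf5 had 7.98 and 5.78. Srsf1, the founding SR protein, had 5.15 and 5.26. Srsf9 had the lowest mean of this class, with 4.82 and 4.40 and 7 and 5 fragments at its summits. Peaks in a single library were seen for Hnrnpab (7.38, replicate 2), Srsf3 (7.06, replicate 2), Sf3a1 (5.13, replicate 2) and Srsf6 (4.45, replicate 2). The same held for Sf3b4 (5.32, replicate 1), Srsf4 (4.95, replicate 1) and Sf3b6 (4.12, replicate 1). These 7 genes were all accessible. Srsf3, a small SR protein that also acts in mRNA export, had ATAC folds of 114 and 93.2 in Control and 119 and 104 in TRF2KO, and Hnrnpab, a CArG-box binding hnRNP, had 107 and 88.7 in Control and 103 and 105 in TRF2KO. Both lie in the top quintile of ATAC height. Sf3a1, the largest Sf3a subunit, had 56.6 and 45.7 in Control and 59.7 and 51.1 in TRF2KO. Sf3b4, the subunit altered in Nager syndrome, had 67.2 and 57.0 in Control and 73.2 and 66.5 in TRF2KO. Sf3b6, which contacts the branch-point adenosine, had 70.4 and 62.8 in Control and 74.6 and 64.9 in TRF2KO.

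No TRF2 peak was listed at the starts of Hnrnpf, Hnrnpl, Hnrnpm, Sf3a3, Sf3b2, Sf3b3, Sf3b5 and Srsf12. Sf3a3, a zinc finger subunit of the Sf3a complex, was accessible nonetheless, with ATAC folds of 60.3 and 60.5 in Control and 66.3 and 65.6 in TRF2KO. Absence from a list means that the threshold was not passed at this depth. Beside Sf3b5 and Hnrnpf, Hnrnpl had TRF2 peaks of 9.30 and 10.1 with summits 2270 bp into the gene, close to an internal transcript start at 2349 bp, where its ATAC peak also had its summit (2172 to 2174 bp). Hnrnpm, a regulator with many GU-rich targets, likewise had its ATAC summit 1367 to 1368 bp into the gene, next to an internal start at 1441 bp, with folds of 72.3 and 65.3 in Control and 89.7 and 76.7 in TRF2KO. When a peak near any annotated transcript start counted, 26 genes had TRF2 in both libraries, beside 25.9% of all coding genes.

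The remaining 12 genes with TRF2 in both libraries had folds between 4.03 and 8.34. Hnrnpa3, a close relative of Hnrnpa1, had 5.27 and 8.34, and Hnrnpdl, a paralog of Hnrnpd, had 5.92 and 8.19. Hnrnpr had 5.70 and 7.50, Hnrnpa1 had 5.46 and 6.04 and Hnrnpa0 had 4.03 and 5.96, each higher in replicate 2. Srsf11 (7.06 and 6.04), Srsf10 (6.57 and 5.48), Hnrnpll (7.13 and 4.82) and Sf3a2 (6.14 and 4.22) were higher in replicate 1. Replicates thus differed in both directions.

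Across the bound members the median was close to that of other genes. The mean TRF2 fold of the 24 genes with a peak in both libraries had a median of 6.70 (4.53 to 11.3), beside 6.68 for all 4843 coding genes bound in both. Replicate 1 gave the higher fold in 11 of the 24. The replicate summits were a median of 139 bp apart, and 18 of 24 pairs lay within 300 bp.

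A larger share of the splicing genes with high ATAC peaks had TRF2, as was also so over all coding genes, a comparison given as counts with no test. In the top quintile of Control percentile 16 of 20 splicing genes had TRF2 in both libraries (80.0%), beside 79.9% of all coding genes in that quintile. In the next quintile the figures were 6 of 11 (54.5%) and 51.8%. The middle quintile held 4 splicing genes, of which 2 were bound, beside 32.3% of all. In the lowest 2 quintiles lay Sf3b3 and Srsf12, neither of them bound, where 15.3% and 3.98% of all genes were. The hnRNP genes had 14 of their 18 accessible starts in the top quintile and 12 of those 14 bound. By contrast, Sf3b2, the partner of Sf3b4 in branch-point tethering, lay in the top quintile (folds 116 and 88.9 in Control, 111 and 102 in TRF2KO) with no TRF2 peak at its start. The TRF2 and ATAC libraries came from injured and uninjured muscle respectively, so the 2 measures were not taken in the same state.

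**Figure D3:**
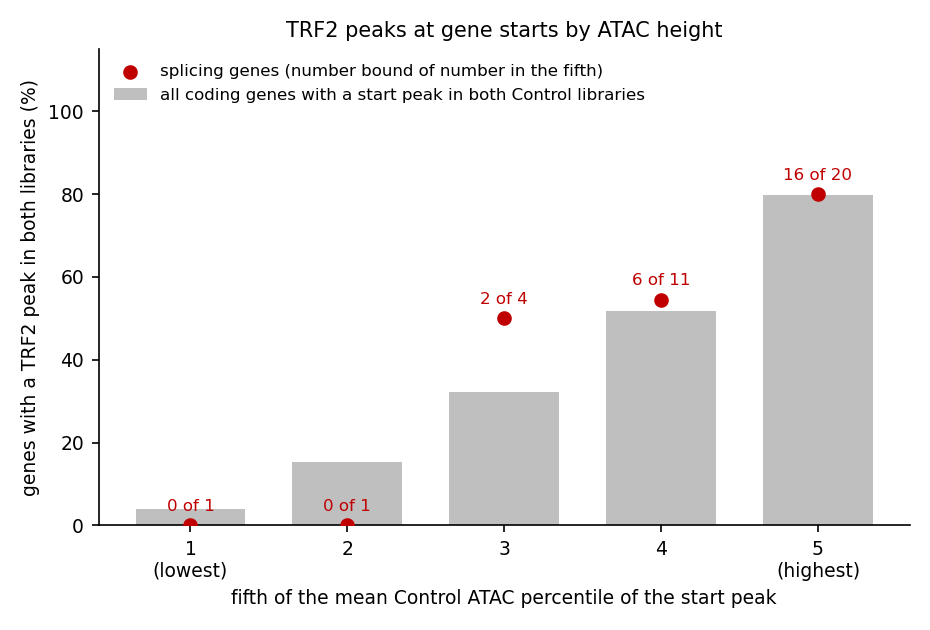
Percent of genes with a TRF2 peak within 1 kb of the start in both TRF2 libraries (y axis) by quintile of the mean Control ATAC percentile (x axis), with grey bars for all coding genes with a start peak in both Control libraries and red points for the splicing genes. The points of the upper 2 quintiles, 6 of 11 and 16 of 20, sit close to bars of 51.8% and 79.9%.

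Positions of TRF2 and open chromatin coincided. Every TRF2 summit at a member start lay inside the ATAC peak of Control replicate 1 (27 of 27 in TRF2 replicate 1 and 28 of 28 in replicate 2). The same count was not made over all coding genes. Of all coding genes with TRF2 in both libraries, only 0.248% did not have an ATAC start peak in all 4 libraries, so such overlap is general. The median distance between the TRF2 and ATAC summits was 142 bp and 106 bp, and 22 and 23 of the summits lay within 300 bp. From the gene start, the median distance of the TRF2 summits was 228 and 192 bp, beside 140 and 129 bp for all coding genes with such a peak. For the ATAC summits of Control replicate 1 it was 119 bp, beside 105 bp. Of those ATAC summits, 26 of 37 lay within 300 bp of the gene start. Among the others were Hnrnpl and Hnrnpm, described above, Hnrnpk, with ATAC summits 1071 and 764 bp into the gene in Control and TRF2 summits at 1223 and 867 bp, and Hnrnpu, the scaffold attachment factor SAF-A. At Hnrnpu the ATAC summits lay at 1189 and 1191 bp, while TRF2 summits lay at 89 and -78 bp (folds 4.84 and 4.22).

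**Figure D4:**
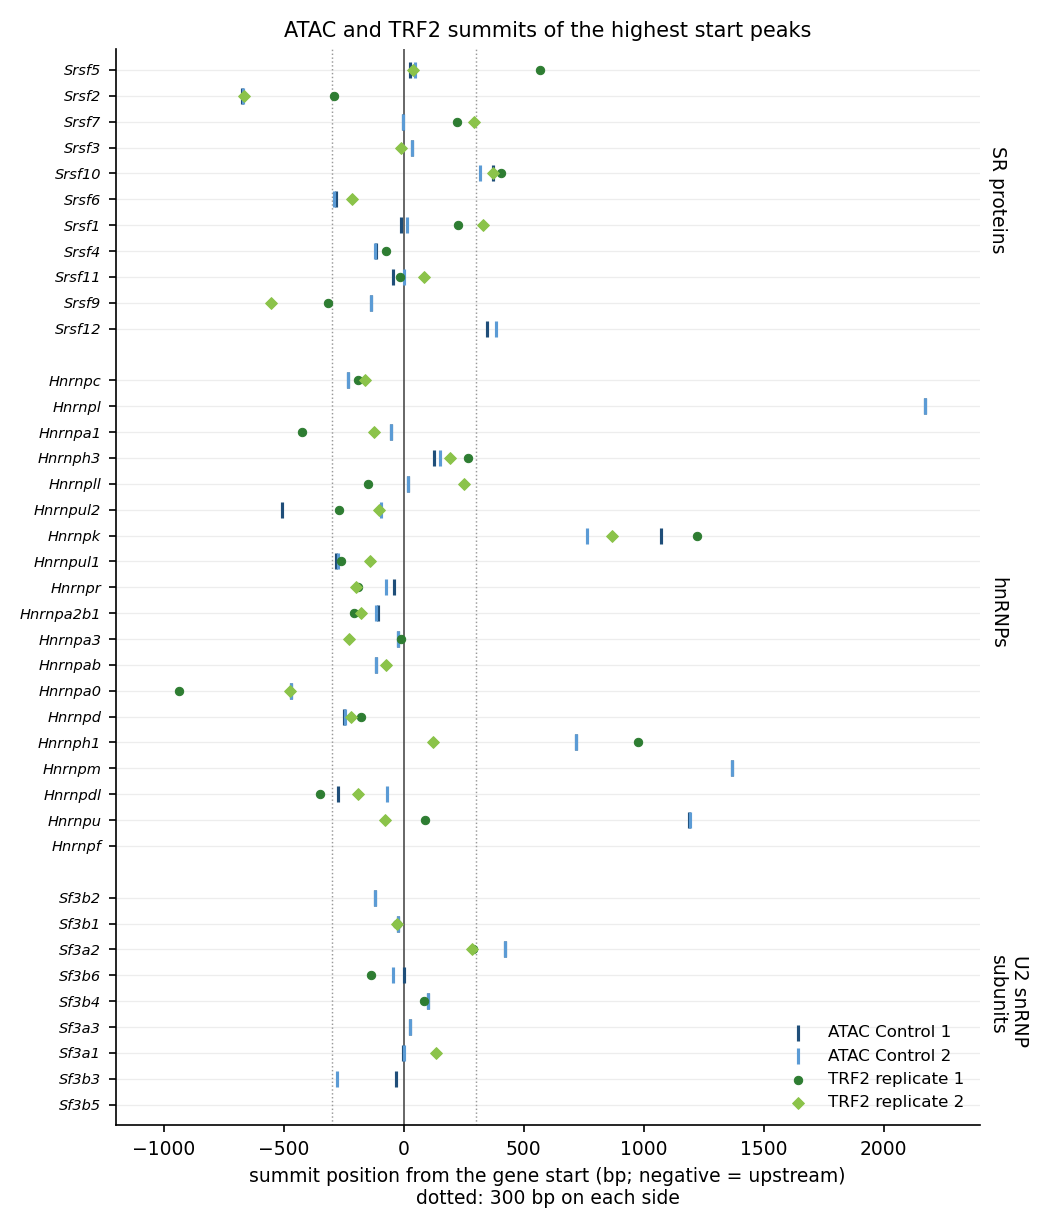
Position of the summit of the highest start peak from the gene start in bp (x axis, negative upstream) for each splicing gene, with bars for the Control ATAC libraries and filled markers for the TRF2 libraries. Most summits fall between the dotted lines at 300 bp, while Hnrnpl, Hnrnpm, Hnrnpu and Hnrnpk have ATAC summits further into the gene.

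A G4 pattern lay within 500 bp of the start in 25 of the 39 genes (64.1%), against 43.7% of all coding genes. Among genes accessible in all 4 libraries it was 24 of 37 (64.9%) against 56.8%, and among those with TRF2 in both libraries 15 of 24 (62.5%) against 58.5%. By class it was in 9 of 11 SR protein genes, 13 of 19 hnRNP genes and 3 of 9 U2 snRNP genes. Srsf12 had 5 such motifs and no TRF2 peak, while Hnrnpa2b1, Hnrnph3, Hnrnpul2 and Hnrnpc, among the highest for TRF2, had none. Of accessible members 15 of 24 with the pattern and 9 of 13 without it had TRF2 in both libraries, and over all accessible coding genes the shares were 38.6% and 36.0%. The motif itself lay in a TRF2 start peak in 12 of the 24 genes (50.0%), beside 45.8% of all coding genes with TRF2 in both libraries. A unit of TTAGGG on either strand lay within 500 bp of the start in 14 of 39 (35.9%), beside 32.3% of all, and no member had 2 units in a row there or 3 in a TRF2 peak.

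Loss of TRF2 was compared at the 37 genes with a start peak in all 4 ATAC libraries. No splicing gene passed an adjusted p of 0.05 in either direction in limma. Across all 12888 genes tested 3 passed as higher (0.0233%) and 13 as lower (0.101%) in TRF2KO, Terf2 among the latter. At an unadjusted p under 0.05 there were 1 splicing gene, Srsf9, and 1627 genes in all, and with the trend option of limma 6 and 1854. The log2 differences of the members ran from -0.19 to 0.30 with a median of 0.02, beside 0.01 for all genes tested. Of the 37, 24 were above 0, a count not made over all genes. That count moved with scaling, to 19 with quantile normalization, 17 with percentile ranks and 35 without centring. Standard errors had a median of 0.0835. The 95% intervals of 34 members lay within 0.5 of 0 on the log2 scale and all 37 lay within 1, while Terf2 had -1.65 to -1.27. With 2 libraries against 2 an exact two-sided permutation test has 6 assignments and cannot go below p = 0.333.

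**Figure D5:**
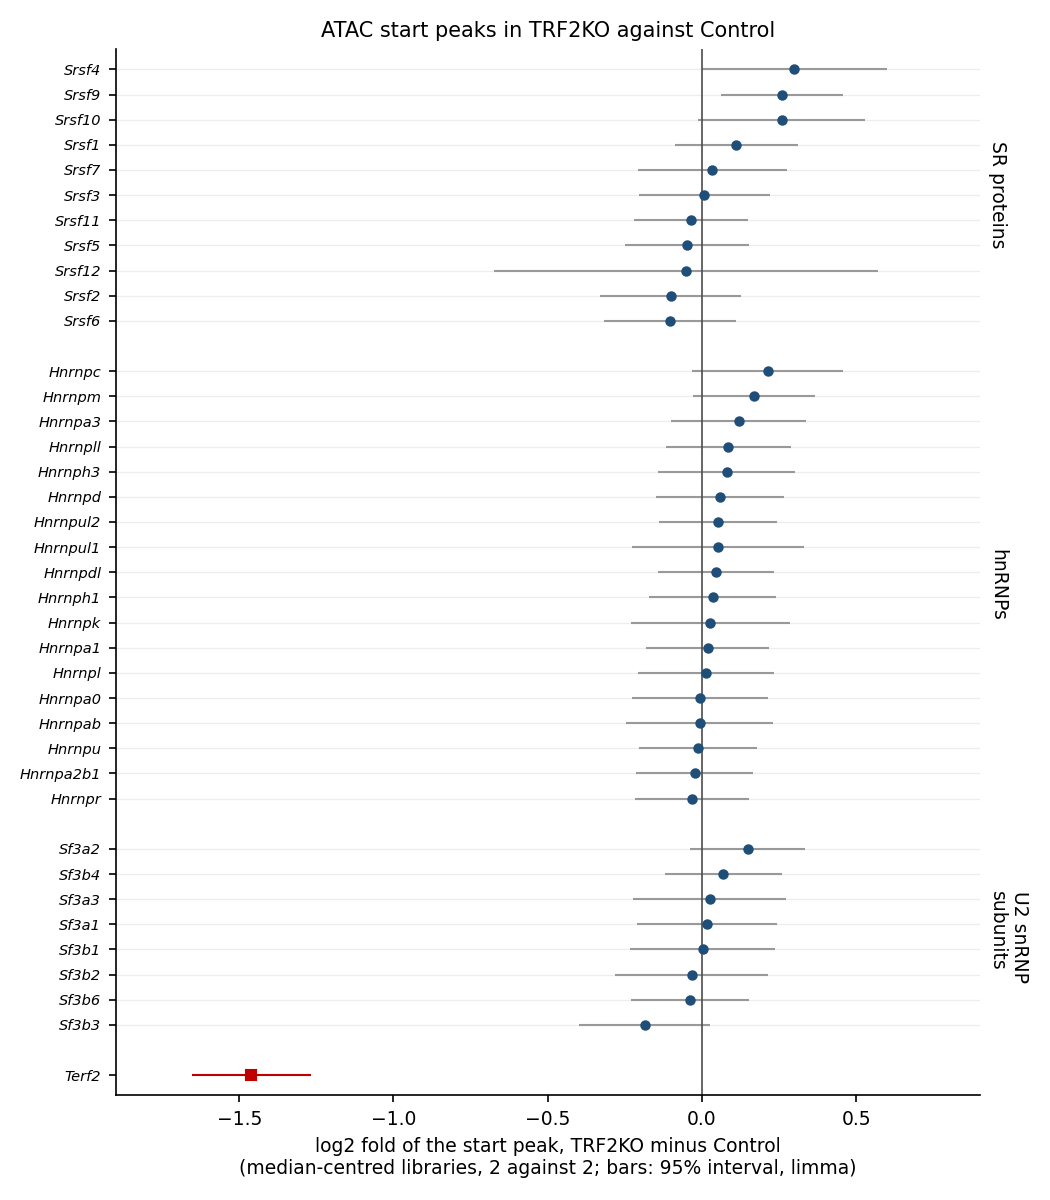
Difference in log2 fold of the ATAC start peak, TRF2KO minus Control (x axis), with limma 95% intervals for the 37 splicing genes with a start peak in all 4 libraries, grouped by class and ordered by size, and for Terf2 in red. The members lie between -0.19 and 0.30 and only the interval of Srsf9 leaves out 0, before adjustment, while Terf2 stands at -1.46.

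The largest positive differences were 3 SR protein genes and Hnrnpc, and none of them passed the test. Srsf4, a large SR protein with a long arginine and serine domain, had folds of 49.0 and 53.6 in Control and 70.4 and 65.1 in TRF2KO. Both TRF2KO libraries stood above both Control libraries, with a log2 difference of 0.30 (SE 0.118, interval -0.001 to 0.60, limma adjusted p = 0.396). The centred values of its 2 Control libraries were themselves 0.01 and 0.31, and the difference was 0.15 without Control replicate 1 and 0.45 without Control replicate 2. For Srsf9, whose folds are given above, the difference was 0.26 (SE 0.0778, interval 0.06 to 0.46, adjusted p = 0.297, the lowest of the members). Srsf10, an SR-like protein that represses splicing once dephosphorylated, had 73.4 and 68.4 in Control and 104 and 79.9 in TRF2KO. Its difference was 0.26 (SE 0.107, interval -0.01 to 0.53, adjusted p = 0.417), and it was 0.14 without TRF2KO replicate 1. Hnrnpc had a difference of 0.21 (SE 0.0959, interval -0.03 to 0.46, adjusted p = 0.445), and 0.13 without Control replicate 2.

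The lowest differences were smaller still. Sf3b3 had -0.19 (SE 0.0833, interval -0.40 to 0.03, limma adjusted p = 0.444), with both centred TRF2KO values (-1.21 and -1.19) below those of Control (-0.95 and -1.08). The difference was -0.12 without Control replicate 1. Srsf6, a proto-oncogenic SR protein, had folds of 66.3 and 61.0 in Control and 63.6 and 63.6 in TRF2KO. The TRF2KO folds lay between the Control folds as deposited and below both after centring, with a difference of -0.10 (SE 0.0841, adjusted p = 0.649). Without TRF2KO replicate 1 it was -0.038, without TRF2KO replicate 2 it was -0.17, and without centring it was close to 0. At Srsf2 the folds were 119 and 94.8 in Control and 108 and 104 in TRF2KO, which overlap, for a difference of -0.10 (SE 0.0899, adjusted p = 0.672). This was -0.025 without Control replicate 1 and -0.18 without Control replicate 2. Srsf12 had -0.05 with the widest interval, -0.68 to 0.57, and -0.43 without TRF2KO replicate 2. Without centring, the sign of the differences of Srsf2 and Srsf12 changed, and that of Srsf12 also changed with quantile normalization and without TRF2KO replicate 1 (0.32).

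By the order of the centred values alone, both TRF2KO libraries lay above both Control libraries in 12 of 37 members (24% of all genes tested) and below them in 5 (21.8%). The 12 were Hnrnpa3, Hnrnpc, Hnrnpdl, Hnrnpll, Hnrnpm, Hnrnpul2, Sf3a2, Sf3b4, Srsf1, Srsf10, Srsf4 and Srsf9, and the 5 were Hnrnpr, Sf3b3, Sf3b6, Srsf11 and Srsf6. Median differences by class were 0.01 for SR proteins, 0.04 for hnRNPs and 0.01 for U2 snRNP subunits. Centring matters for the sign here, since without it the median of all genes moved to 0.11 and that of the members to 0.13.

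Other splicing genes were read the same way from 3 lists of 85 autosomal coding genes. Among 30 snRNP proteins 27 had an ATAC peak in all 4 libraries and 11 had TRF2 in both. U2af2, the large subunit that reads the polypyrimidine tract, had TRF2 folds of 5.38 and 5.36, while Prpf8, the core of the spliceosome, had none despite ATAC folds of 91.2 to 115. Among 17 SR kinases and SR-related genes 16 were accessible and 9 had TRF2 in both. Tra2b, an activator with an SR-like domain, had TRF2 folds of 7.23 and 7.16, and Clk1 and Srpk1, kinases of SR proteins, had none. Among 38 other RNA-binding regulators 32 were accessible and 20 had TRF2 in both. Raly, a relative of Hnrnpc, had 10.8 and 12.8, and Ptbp1, the polypyrimidine tract binding repressor, had 6.94 and 8.65. Together 75 of 85 had ATAC in all 4 libraries and 40 had TRF2 in both, beside 61.9% and 23.3% of all autosomal coding genes. Median Control percentiles of the 3 lists were 69.0, 74.7 and 71.0. These fall in the quintile below the top, where 51.8% of all coding genes had TRF2 in both. Shares of the lists at matched ATAC height were not counted. None of the listed genes passed the genotype test, and their lowest limma adjusted p was 0.160.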

How the data were processed

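The members, gene lists and tests were chosen with earlier results of these data known. Per the labels and the methods, the authors trimmed reads (cutadapt 4.4, named for CUT&Tag), aligned them to mm10 with Bowtie2 in local mode, kept unique proper pairs, removed duplicates with Picard 3.1.1 and called peaks with MACS3 (3.0.0 for CUT&Tag and 3.0.2 for ATAC per the processing notes), SEACR 1.3 (stringent) and GoPeaks. The processing notes give Bowtie2 2.4.4 for CUT&Tag and 2.5.4 for ATAC, and the methods give another release. SEACR and GoPeaks regions were used here for ATAC only. Settings of MACS and GoPeaks, use of IgG as a control for peak calling and any shift of ATAC reads are not given in the sources used here, which leaves thresholds unknown and positions uncertain by a few bases. The deposited fold is a ratio of the pileup at the peak summit to a background, which was constant within each ATAC library. The deposited -log10 p and -log10 q values gave fragment depth (with the fold) and a stricter limit. Peak scores, SEACR signal and the DiffBind score of the deposited consensus lists were not used as values. The deposited consensus lists, named by genotype, were taken as pooled over its libraries.

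A start peak was a MACS peak with any base within 1 kb of the GENCODE M21 gene start, and the highest one stood for a gene. Folds were taken as log2, centred on each library's median over the 12888 genes with a start peak in all 4 ATAC libraries and fitted in limma 3.58.1 (R 4.3.3), Control against TRF2KO, with Benjamini-Hochberg adjustment over all of them. The fit was tested on simulated data. P-values set a difference against the spread between 2 libraries a group, after limma drew each gene's variance towards that of all genes tested. The shared part carried 3.18 degrees of freedom and the gene's own libraries 2, so standard errors and intervals rest on both. Counting error is not modelled. Sequence came from the RefSeq GRCm38.p6 assembly. Values were given in every library for members by rule: the 5 highest and 3 lowest ATAC percentiles, the 6 highest TRF2 folds, the 4 largest differences in each direction, and members with TRF2 in 1 library or none. Other members, and genes of the lists, were chosen as examples after their values were seen. Alternatives were other distances, annotations, callers, limits, scalings and left-out libraries.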

Additional observations from a re-analysis of the deposited data

How the results depend on the processing

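No splicing gene was called by genotype in any of the 12 alternative settings (lowest member adjusted p between 0.202 and 0.689), a range of 0 to 0 when each ATAC library was left out, while the number of all coding genes called ran from 0 to 176. The numbers do not pair the libraries (correlation of the deviations of same-numbered libraries -0.0817). With the replicate number as a block 0 members and 8 genes were called, against 16 without it, and the median member difference was 0.0246 as before. Without centring that median was 0.127, and leaving out each ATAC library gave -0.0139 to 0.0587. Terf2 lost its call without Control replicate 1 or 2, at -1.46 each. The count of 24 members with TRF2 in both libraries fell to 13 with peaks of -log10 q of at least 5, and was 27 and 28 with either library alone (29.8% and 31.3% of all coding genes). With RefSeq gene starts, chosen after seeing the data, it was 21 (22.5% of all). ATAC in all 4 libraries held for 33 to 38 members in every setting, beside 49.5% to 66.1% of all coding genes. A G4 motif in the TRF2 peaks themselves was found in 12 genes. Members at an unadjusted p under 0.05 numbered 6 at most, with the limma trend option. The median Control percentile was 96.9 when ranked among all peaks. TRF2 summits of members rest on 5 to 31 fragments, so an absent peak says little.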
